A study of Mus musculus with 10 samples.

Results

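The genes described here are 9 that osteoblasts use to take on their identity and to mineralise bone matrix: the transcription factor genes Runx2, Sp7, Dlx5, Dlx3 and Msx2, the matrix and mineral genes Alpl, Ibsp and Phex, and the receptor gene Pth1r. They were chosen by name, and every non-control probe that the scanner files assign to one of them was taken, which gave 12 probes among the 55681 on the array (9 of 34607 gene names). The cells were C2C12, an established line of mouse myoblasts, undifferentiated muscle precursors that can fuse into myotubes. The mimic group was transfected with a miR-142-3p mimic, a synthetic RNA that raises the level of that microRNA, and the scramble group with a scrambled sequence, both by lipofection at the same dose, and RNA was taken 72 hours later. Both groups received transfection reagent and a small RNA, and the submitters put the share of cells transfected at about 60%, so each sample mixes cells that did and did not take up the RNA. The scramble samples, and no mimic sample, are marked as re-analysed in their titles, and what that stands for is not given in the labels.

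The labels list 6 mimic and 4 scramble samples. The file headers place them on 5 positions of 1 slide, each scanned on 2 days. Pairs of scans of 1 position had 21 to 77 non-uniform spots in common, against at most 2 for any other pair. Such pairs were averaged into 1 array each, which leaves 3 arrays with the mimic and 2 with the scramble. The share of non-control spots well above background was 25.4% to 34.6% per scan, where well above background is the scanner software's call that a spot is clearly brighter than its surroundings. The dimmest probe so called had a processed signal between 60.7 and 121.8 in each scan. Across the array 1332 of 13677 genes tested were called at an adjusted p below 0.05 (limma), which is 9.74% (5.86% higher and 3.88% lower with the mimic), with a median difference over all genes of 0.09 on the log2 scale. The muscle regulators Myod1 and Myog, which C2C12 cells are known for, were well above background on all 4 scramble scans. With the mimic, Myog fell by 7.08 and Myod1 fell by 3.25 on the log2 scale (adjusted p = 1.14e-05 and 0.000256, limma).

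Osteoblasts arise from mesenchymal precursors under the control of RUNX2, which acts upstream of SP7 (osterix), and homeobox factors of the DLX and MSX families modulate the same programme. Committed cells then make alkaline phosphatase (ALPL), which frees phosphate by hydrolysing pyrophosphate, an inhibitor of mineral, and bone sialoprotein (IBSP), which nucleates hydroxyapatite. C2C12 myoblasts are known for leaving the muscle lineage and turning on osteoblast genes when exposed to bone morphogenetic protein 2 (BMP2), so these genes can be used in this line.

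The introduced RNA and the probes that carry the results are shown first, because what can be said of each gene depends on which stretch of transcript was measured. The mature mouse miR-142a-3p, given by RefSeq (GRCm38.p6, chr11:87756903-87756925, plus strand), has its seed, bases 2 to 8, in capitals. The labels name the mimic miR-142-3p and do not give its sequence.
mmu-miR-142a-3p: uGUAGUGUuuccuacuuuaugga
Runx2 had 3 probes on chromosome 17 of mm9, all on the minus strand. In the first, capitals mark an ATG, from which an open reading frame runs to the end of the probe. The first and second were designed on the mRNA record of Runx2 and lie 206.203 kb apart (chr17:44951128-44951187 and chr17:44744925-44744984), and the third on a record for a noncoding transcript of the gene, 111.891 kb further downstream (chr17:44633034-44633093).
Runx2 probe A_52_P55876: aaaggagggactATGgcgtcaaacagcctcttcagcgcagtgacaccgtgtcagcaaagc
Runx2 probe A_52_P460545: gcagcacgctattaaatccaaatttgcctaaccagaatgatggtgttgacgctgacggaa
Runx2 probe A_65_P18181: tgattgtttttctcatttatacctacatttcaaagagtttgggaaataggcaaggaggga
For the 3 genes that could be tested, the first 30 bases of the 60-base probe are given, all in lower case.
Phex probe A_51_P468249, chrX:153596731-153596790, minus strand: catctttatcactagtggcaatgctttatt
Msx2 probe A_55_P2043486, chr13:53562318-53562377, minus strand: cctgtccatctcttcccccagtatattttt
Dlx3 probe A_55_P2122987, chr11:94986262-94986357, plus strand: ttttttagagcaaccaagagaagcaggtcc
The mapped span of the Dlx3 probe is 96 bases for a probe of 60, as the files give it. A match to the seed of miR-142-3p, ACACTAC or the shorter CACTAC, was searched on the sense strand of all 12 probes and was present in 0, which says nothing about the rest of each transcript.

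Of the 9 genes, 6 gave no usable signal in either group. Sp7, Alpl, Ibsp, Dlx5 and Pth1r were never well above background in the 10 scans, and Runx2 was so only on 2 spots of poor uniformity. Phex, Msx2 and Dlx3 were detected often enough to be tested, and of these 3 only Phex was called, at 3.65 times its scramble signal. Members that passed the filter on dim probes are no fair sample of the 9, so the count of 1 in 3 is set beside the 9.74% of all genes (and 9.5% of all probes) without a test.

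**Figure D1:**
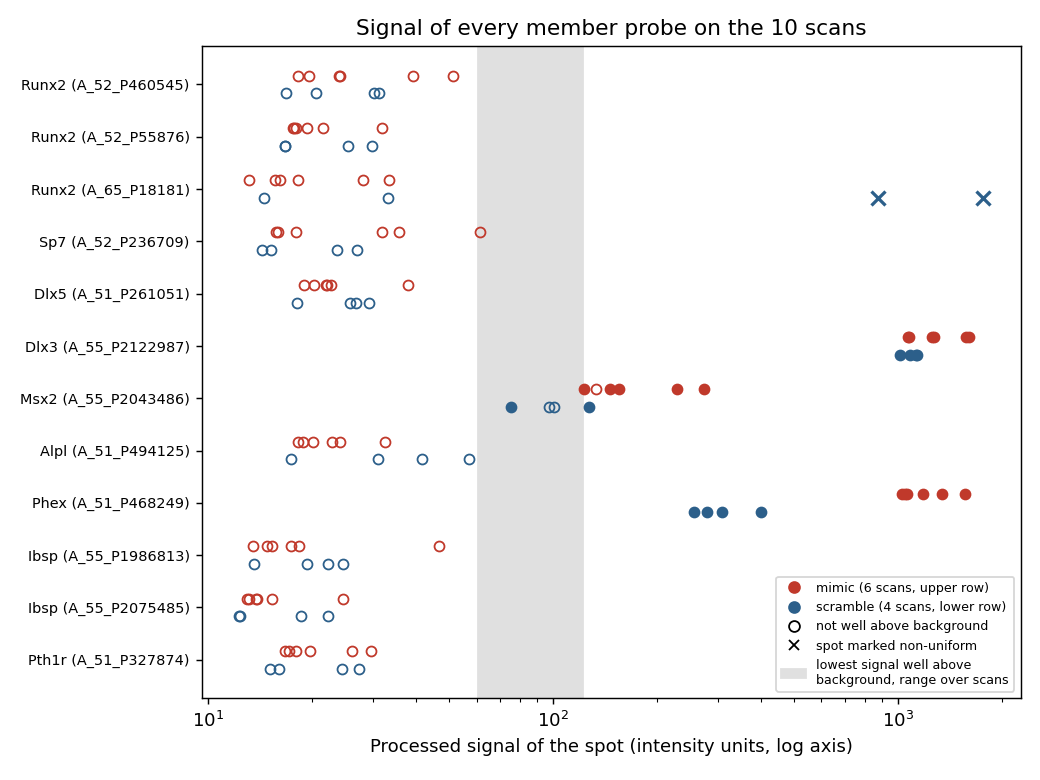
Processed signal of each of the 12 probes on the 6 mimic scans (red, upper row) and the 4 scramble scans (blue, lower row), on a log axis in intensity units. Filled points are well above background, crosses are spots marked non-uniform, and the grey band runs from 60.7 to 121.8, the range over scans of the dimmest signal well above background; Phex is the 1 gene whose filled points separate widely.

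Of the transcription factors, Runx2, the factor without which no osteoblasts form, had 2 mRNA probes that were never well above background. The probe holding the ATG read 17.6, 18.6 and 31.8 (lowest, median and highest of 6 mimic scans), against 25.4, 16.6, 29.9 and 16.7 on the 4 scramble scans. The other mRNA probe read 18.2, 24.0 and 51.1 on the mimic scans, against 30.2, 20.5, 31.3 and 16.8 on the scramble scans. The ranges overlapped for both probes, and no level can be set for Runx2 mRNA beyond being under the detection range of these scans.

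The noncoding Runx2 probe behaved otherwise on a single array. It read 13.1, 17.2 and 33.3 on the mimic scans, against 33.1 and 14.5 on the scans of scramble array 1 and 1769 and 874 on those of scramble array 2. The software called the 2 bright spots well above background but also marked both as non-uniform, and they were left out of all group values. Their pixels had a standard deviation of 3043 around a mean signal of 2033 on the first scan day, and of 1792 around 1016 on the second. Over the spots of these scans with a processed signal above 500, the median ratio of the standard deviation to the mean was 0.158 (9480 spots) and 0.130 (8840 spots), and it exceeded 1 in 0.464% and 0.588% of them. With the marked spots kept, the fitted difference of the probe was −3.17 ± 1.61 on the log2 scale (SE, mimic minus scramble) with an adjusted p of 0.313 (limma), and it rested on scramble array 2 alone.

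Sp7, the zinc finger factor that acts after RUNX2, read 15.7, 24.9 and 61.4 on the mimic scans, against 23.6, 15.2, 27.1 and 14.3 on the scramble scans. Its highest values in each array came from the first scan day, when the mimic arrays read 61.4, 31.9 and 35.6, against 16.0, 17.9 and 15.7 for the same arrays on the second day. Dlx5, a homeobox factor of early osteoblasts and of the BMP response, read 19.0, 22.1 and 38.0 with the mimic, against 26.8, 18.1, 29.3 and 25.8 with the scramble. Neither gene had a scan well above background, and both pairs of ranges overlapped.

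Dlx3, a homeobox factor of osteoblasts, epidermis and placenta, was the transcription factor member with clear signal throughout. It read 1067, 1261 and 1607 on the mimic scans, against 1014, 1081, 1130 and 1139 on the scramble scans, all well above background. After each scan was scaled to its 75th percentile, the log2 signal was 2.91, 3.07 and 3.15 on the mimic arrays, against 2.79 and 2.99 on the scramble arrays, so the groups overlapped. The difference was 0.16 ± 0.20 (SE, 95% limits −0.30 to 0.61), with an adjusted p of 0.671 (limma). The limits include both a fall and a rise.

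Msx2, a homeobox factor of osteoblast precursors and a BMP response gene, was dim in both groups. It read 123.2, 150.5 and 274.5 on the mimic scans, against 100.9, 126.7, 97.1 and 75.3 on the scramble scans, with calls well above background on 5 of 6 mimic and 2 of 4 scramble scans. Scaled log2 signals were −0.16, 0.00 and 0.48 on the mimic arrays, against −0.42 and −0.74 on the scramble arrays. The arrays of the groups did not overlap, a pattern found in 42.4% of all genes tested (25.7% with the mimic higher), and mimic array 3 was the highest of them. The difference of 0.69 ± 0.25 (SE, 95% limits 0.12 to 1.27) did not pass the test over all genes (adjusted p = 0.131, limma). It passed only in fits that took all 10 scans as samples, at an adjusted p of 0.0156, or at 0.0374 with the replicate number as a block.

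Of the matrix and mineral genes, Phex rose. It encodes a membrane endopeptidase of osteoblasts and osteocytes, and its loss causes X-linked hypophosphataemia with poorly mineralised bone. It read 1025, 1125 and 1564 on the mimic scans, against 400.5, 308.4, 279.9 and 255.5 on the scramble scans, and was well above background on all 6 and all 4. Every mimic scan was brighter than every scramble scan, although the scans of an array are not separate replicates. Scaled log2 signals were 2.83, 3.12 and 2.82 on the mimic arrays, against 1.21 and 0.90 on the scramble arrays. The means were 2.93 ± 0.17 for the mimic (SD, n = 3) and 1.06 ± 0.22 for the scramble (SD, n = 2).

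The Phex difference of 1.87 ± 0.21 on the log2 scale (SE, 95% limits 1.38 to 2.36) corresponds to a 3.65-fold rise and passed the test over all genes (adjusted p = 0.00101, limma). It was higher in 3 of 3 mimic arrays than in either scramble array. Arrays without overlap were found in 42.4% of all genes tested (25.7% with the mimic higher). Among the 802 genes called higher with the mimic Phex had the 185th largest difference, so many genes moved further. By scan day the difference was 1.95 ± 0.21 on the first (adjusted p = 0.00145) and 1.78 ± 0.25 on the second (adjusted p = 0.00167, limma, SE). Phex rests on 1 probe, and a second stretch of its transcript was not measured.

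**Figure D2:**
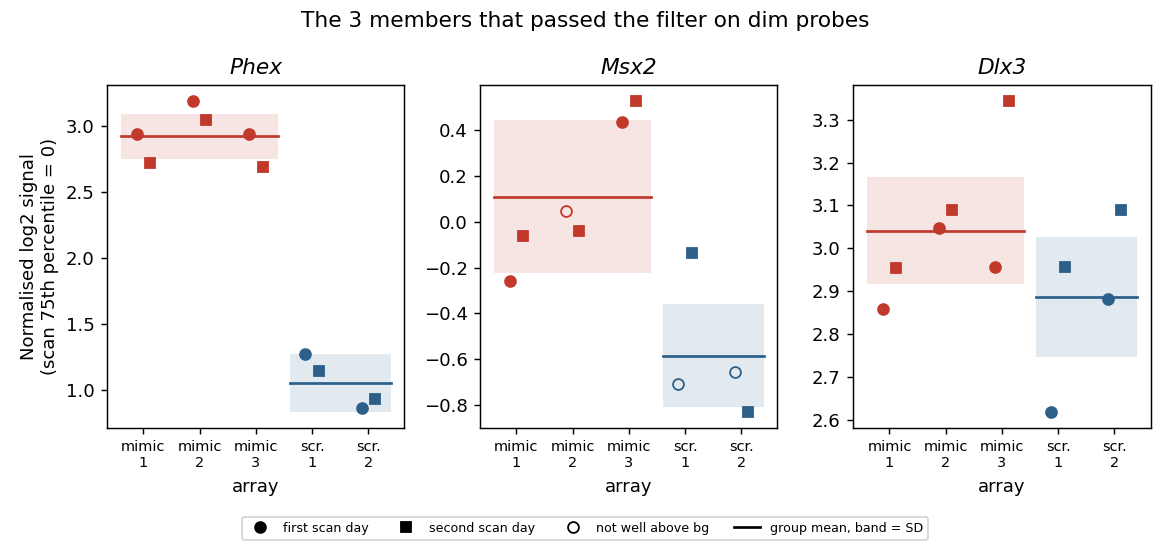
Log2 signal, with each scan's 75th percentile set to 0, of Phex, Msx2 and Dlx3 on each mimic (red) and scramble (blue) array, with circles for the first and squares for the second scan day, open symbols where the spot was not well above background, lines for group means and bands for the SD over arrays. The vertical axes differ between panels; the mimic arrays of Phex lie between 2.82 and 3.12 and the scramble arrays at 1.21 and 0.90, whereas the Dlx3 arrays overlap.

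Alpl, the tissue-nonspecific alkaline phosphatase whose activity is the classical readout of osteoblast conversion in C2C12 cells, was not detected. It read 18.2, 21.5 and 32.6 on the mimic scans, against 57.0 and 41.7 on scramble array 1 and 31.0 and 17.3 on scramble array 2. Both scans of scramble array 1 were above every mimic scan, but all were under the lowest signal well above background of any scan, and scramble array 2 lay within or below the mimic range. Ibsp, the bone sialoprotein gene, had 2 probes, both at background. One read 13.5, 16.3 and 46.5 with the mimic, against 22.3, 19.3, 24.6 and 13.5 with the scramble, and the other had a median of 13.8 and a highest value of 24.6 with the mimic, against 18.5, 12.3, 22.3 and 12.3 with the scramble.

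Pth1r, the receptor through which parathyroid hormone and its related peptide act on osteoblasts, was also at background. Its probe, on the minus strand at chr9:110624846-110624905, read 16.7, 18.9 and 29.6 on the mimic scans, against 24.4, 16.0, 27.3 and 15.1 on the scramble scans, with overlapping ranges. No fold is given for any of the 5 genes that stayed at background, since both groups have only an upper bound.

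**Figure D3:**
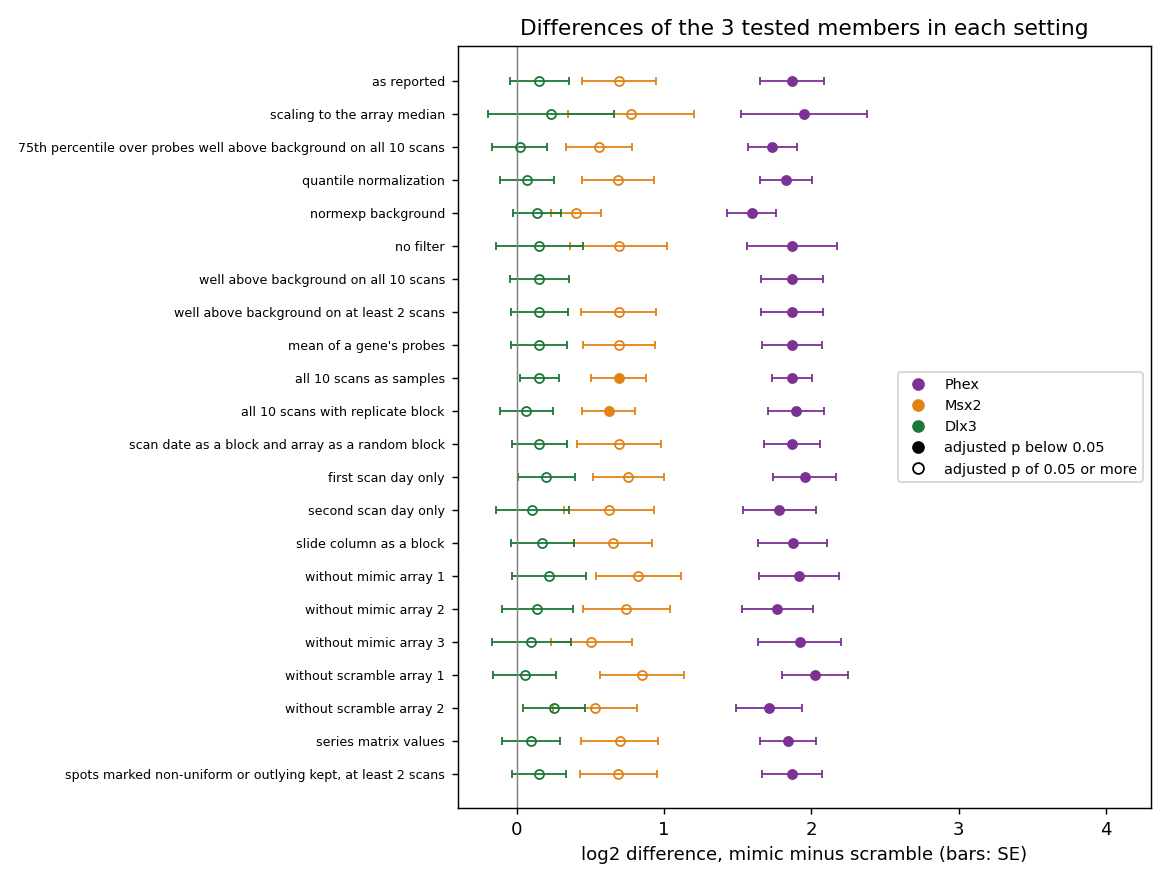
Log2 difference, mimic minus scramble, of Phex (purple), Msx2 (orange) and Dlx3 (green) as reported and in each of 21 other processing settings, with bars for the SE and filled points where the adjusted p was below 0.05. Phex stays between 1.59 and 2.02 and is filled throughout, Msx2 is filled in 2 settings and was not tested where a probe had to be well above background on all 10 scans, and Dlx3 in none.

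The other genes of the pathways these 9 belong to were taken from 8 lists of 91 distinct genes, of which 47 passed the filter and 13 were called, 6 higher and 7 lower. That is 27.7% of those tested, against 9.74% of all genes, and their median difference was 0.02, against 0.09 for all genes. The called genes Omd, Postn and Ece2 passed the filter only through the group that detected them. Acvr2a, also called, passed mainly through the scramble, with 4 scramble scans and 1 mimic scan well above background. The lists were drawn up with results of these data known, and neither figure was tested.

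No tested relative of the transcription factor members was called. The RUNX list had 2 of 3 genes tested and 0 called. Runx1, the blood-forming member, differed by −0.23 ± 0.20 (adjusted p = 0.496), and Cbfb, the partner of all RUNX proteins, by 0.25 ± 0.35 (adjusted p = 0.696, limma, SE). The other kept Runx1 probe differed by −0.83 ± 0.45 and was not called either (adjusted p = 0.289 over all probes, limma, SE). Cbfb was well above background throughout, whereas no scan detected Runx3. Of the 6 other DLX and MSX genes, 2 were tested and 0 called: Dlx2 differed by 0.47 ± 0.24 (adjusted p = 0.261) and Msx1 by −0.38 ± 0.29 (adjusted p = 0.449, limma, SE).

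Among 12 other regulators of osteoblasts, 6 were tested, 1 was called higher and 1 lower. Hey1, a Notch and BMP response gene that restrains RUNX2 activity, fell by 2.91 ± 0.27 on the log2 scale, 7.50-fold (adjusted p = 0.000351, limma, SE), with 0.48, 0.64 and 0.18 on the mimic arrays, against 3.72 and 2.97 on the scramble arrays. Twist2, a repressor that binds RUNX2, rose 1.93-fold, at 2.26, 2.65 and 2.66 on the mimic arrays, against 1.60 and 1.55 on the scramble arrays (adjusted p = 0.0294, limma). The Twist2 call was lost when any single mimic array or scramble array 2 was left out, at adjusted p-values between 0.0549 and 0.128.

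The bone matrix list had 11 of 15 genes tested, with 3 called higher and 1 lower. Bglap2 and Bglap3, of the osteocalcin gene cluster, rose 6.90-fold and 5.95-fold (adjusted p = 0.000112 and 0.000153, limma). Bglap2 read 2.73, 2.99 and 2.78 on the mimic arrays, against 0.07 and 0.02 on the scramble arrays. A second Bglap3 probe, well above background on no scramble scan, rose at least 6.15-fold (adjusted p = 0.00301 over all probes, limma). The genes of this cluster are near-identical, so which of them rose is uncertain, and the probes of Bglap, another osteocalcin gene of the cluster, were well above background on at most 1 of the 10 scans.

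Omd, osteomodulin, was well above background on all 6 mimic scans and on no scramble scan, and rose at least 1.93-fold (adjusted p = 0.000810, limma). For such a gene or probe a bound is given. It sets the group well above background against a floor for each scan of the other group. That floor is the scan's dimmest signal well above background, or the spot's own signal where that was higher. Every adjusted p printed beside such a bound belongs to the fitted difference, which uses the background-level signals of the other group. Such a gene or probe passed the filter only through the group where it was detected. Postn, periostin of the periosteum, was well above background on no mimic scan and on all 4 scramble scans, and fell at least 2.76-fold (adjusted p = 0.000164, limma). The median difference of the 11 genes was 0.32.

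The list of phosphate, pyrophosphate and mineral control genes had 7 of 16 genes tested, 0 called higher and 2 lower. Slc20a2, a sodium-phosphate cotransporter, fell 2.21-fold (adjusted p = 0.0142) and a second probe, well above background on no mimic scan, fell at least 2.48-fold (adjusted p = 0.00648 over all probes, limma). Its call was lost without mimic array 1 (adjusted p = 0.0743). Enpp1, which makes the pyrophosphate that ALPL removes, fell 1.83-fold (adjusted p = 0.0306, limma), but its other probe differed by −0.10 ± 0.39, and the call was lost without any single mimic array, at adjusted p-values between 0.0782 and 0.140.

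In the list of parathyroid hormone, vitamin D and RANKL genes 4 of 10 were tested and 0 called. The 2 nearest to the threshold were Vdr, the vitamin D receptor, and Nr4a2. The Vdr probe was detected on 4 of 6 mimic scans and on no scramble scan, so that only a bound of at least 1.35-fold in favour of the mimic can be given, and it did not pass the test (adjusted p = 0.0587, limma). Nr4a2 differed by 0.92 ± 0.41 (adjusted p = 0.203, limma, SE). Its other kept probe differed by 1.25 ± 0.40 and was not called either (adjusted p = 0.0915 over all probes, limma, SE). Of the 6 M13 metallopeptidase genes, the family to which Phex belongs, only Ece2, an endothelin-converting enzyme gene, was tested. It was well above background on all 6 mimic scans and no scramble scan, and rose at least 1.83-fold (adjusted p = 0.0134, limma). Its call was lost without mimic array 2 or mimic array 3 (adjusted p = 0.0604 and 0.0529).

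The BMP list had 14 of 23 genes tested, 1 called higher and 3 lower. Grem1, a secreted BMP antagonist, rose 3.33-fold, at 4.43, 4.76 and 4.29 on the mimic arrays, against 2.72 and 2.80 on the scramble arrays (adjusted p = 0.00164, limma). Bmp4, a BMP ligand, fell 3.00-fold, at 0.89, 0.98 and 1.01 on the mimic arrays, against 2.69 and 2.41 on the scramble arrays (adjusted p = 0.00168, limma). Acvr2a, an activin and BMP receptor, fell 2.11-fold (adjusted p = 0.0144) with 1 of 6 mimic scans and all 4 scramble scans well above background. Id3, a BMP target gene, fell 1.92-fold (adjusted p = 0.0246, limma). Both of these calls were lost without any single mimic array, at adjusted p-values between 0.0512 and 0.111, and that of Id3 also without scramble array 2 (adjusted p = 0.0715). Bmp2 was at background throughout.

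**Figure D4:**
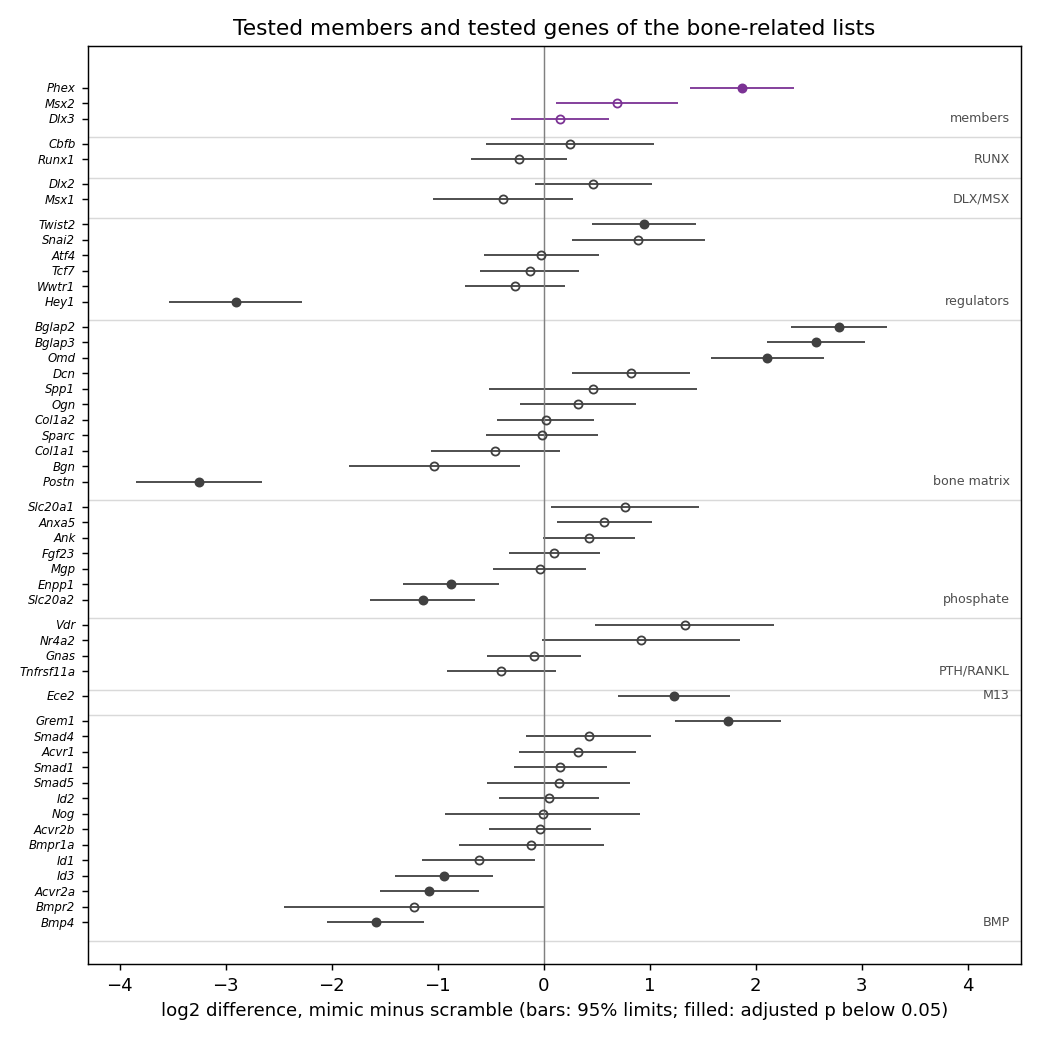
Log2 difference, mimic minus scramble, with 95% limits, of the 3 tested members (purple) and the tested genes of the 8 lists, grouped by list; filled points have an adjusted p below 0.05, and the points of Omd, Postn, Vdr and Ece2, each undetected in 1 group, are fitted values and not bounds. Rises of Phex, Bglap2, Bglap3, Omd and Grem1 stand beside falls of Hey1, Postn and Bmp4.

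Markers of other cell types were read beside these results. In bulk RNA fewer cells of a type cannot be told apart from less RNA per cell. Of 6 myotube genes, 5 were called lower and 0 higher, with a median difference of −5.10. Their summed level, relative to each array's 75th percentile on a linear scale, was 14.3 to 18.1 on the mimic arrays, against 452.3 to 479.0 on the scramble arrays. Besides Myog, the called genes were Actc1, Tnnc1, Tnnt1 and Myh3, whereas Ckm differed by −0.59 on the log2 scale (adjusted p = 0.187, limma). The part of this myotube shift in the values of Phex or the lists was not tested.

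Of 8 chondrocyte genes 3 were tested and 0 called, with a summed level of 15.1 to 18.8 for the mimic and 14.0 to 19.7 for the scramble, and no scan had Col2a1, Col10a1, Matn1, Comp or Ihh well above background. Of 6 adipocyte genes 3 were tested and 1, the fat-cell regulator Pparg, was called higher, by 2.36-fold (adjusted p = 0.00949, limma). Their summed level was 36.8 to 44.3 for the mimic and 23.6 to 29.9 for the scramble, and the gap came mostly through Pparg. Cebpa differed by 0.56 (adjusted p = 0.314) and Lpl by 0.13 (adjusted p = 0.753, limma) on the log2 scale. No scan had Fabp4, Adipoq or Plin1 well above background. Of 6 leukocyte genes 3 were tested and 1, the lysosomal Cd68, was called higher, by 4.83 on the log2 scale (adjusted p = 1.86e-05, limma). Itgam differed by 0.15 (adjusted p = 0.679) and Csf1r by 0.17 (adjusted p = 0.699, limma). The other kept Csf1r probe differed by −0.67 ± 0.32 and was not called either (adjusted p = 0.236 over all probes, limma, SE). The summed level of the 6 genes was 47.4 to 52.3 for the mimic and 17.5 to 17.7 for the scramble. The gap between the groups came mostly through Cd68. Ptprc, Lyz2 and Tyrobp of the same list stayed at background on all 10 scans.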

How the data were processed

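Total RNA was amplified, labelled with Cy3 and measured on 1-colour Agilent mouse arrays, per the labels' protocols. The deposited scanner files give linear spot intensities, corrected for background by Feature Extraction 12.0.0.7 with probes placed on mm9, per the file headers; per the submitters' processing notes it was 10.7.3.1. The deposited series matrix also holds linear intensities, with column medians between 175.5 and 353.8 and the same maximum of 465700 in each column; the step that equalised the columns is not given in the labels or headers.

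From these, log2 of the processed signal was computed and each scan's 75th percentile of non-control probes was subtracted, without spots marked non-uniform or as population outliers. Probes well above background on at least 4 of 10 scans were kept (17455), and the brightest probe stood for a gene (13677 genes). Scans of 1 position were averaged, although the labels list them as separate samples. The 3 mimic and 2 scramble arrays were compared with limma 3.58.1 in R 4.3.3, with p-values adjusted over all genes after Benjamini and Hochberg and called below 0.05. Nothing in the headers says which culture an array came from, so p-values cover only the spread of these arrays, part of which may be technical. The number of arrays limits the precision. Names were updated through RefSeq tables of GRCm38.p6 (28020 probes by accession, 3423 by symbol, 295 by synonym, 23943 unchanged). The members and lists were chosen with earlier results of these data known. Genes named are the 9 members, for each list up to 4 called genes with the lowest p, or 2 where none was called, Myod1 and Myog; other names, such as genes that were not detected, were chosen after their values were seen. On simulated data for this comparison (13677 genes) the fit recovered 90.4% of the 4-fold changes, 12.5% of the 2-fold changes and 0.6% of the 1.5-fold changes, and 5.38% of its calls were unchanged genes. The alternatives were other scalings, background corrections, filters, replicate units and scan days, leaving out each array, the series matrix, and, added after seeing the data, keeping marked spots.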

Additional observations from a re-analysis of the deposited data

Results flagged for a closer look

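The noncoding Runx2 probe A_65_P18181 gave a processed signal of 1769 on the first and 874 on the second scan day of scramble array 2. These 2 spots drew attention because they were called well above background although both were marked non-uniform and so left out of the main comparison, while the probe read at most 33.3 on the other 8 scans, mimic scans included. What lies behind the 2 spots was not tested. With 3 and 2 arrays, no group was large enough to look for a single outlying array by its gap to the rest.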

How the results depend on the processing

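Phex kept its direction and its call in all 21 alternatives (1.59 to 2.02 on the log2 scale, highest adjusted p 0.0245, limma), and Dlx3 was called in none (0.02 to 0.25). Msx2 stayed positive in the 20 that tested it (0.40 to 0.85). No called list or marker gene given with values reversed its direction, but calls were lost for Twist2 in 11 of 21 alternatives, Enpp1 in 10 of 21, Id3 in 9 of 21, Acvr2a in 9 of 20, Slc20a2 in 3 of 21, Ece2 in 3 of 20 and Pparg in 1 of 21. The genes called over the whole array numbered 761 with the array median as scale, 407 without a filter on dim probes, 810 with the slide column as a block, 651 in the series matrix (325 higher and 326 lower, against 802 and 530), 771 with marked spots kept, 4154 with all 10 scans as samples and 2336 with the replicate block. Leaving out 1 array gave 641 to 3671 (3671 without scramble array 1, and 641, 672 and 668 without mimic arrays 1, 2 and 3). The cause was not tested. Of the member genes and of the member probes tested, 2 were called with all 10 scans as samples and 2 with the replicate block. In every other alternative run 1 was called (a mean over a gene's probes gives no count of probes). Those tested were 2 genes where detection on all 10 scans was required, and 9 genes and 12 probes without a filter. Where detection on 2 scans sufficed, 4 genes and 4 probes were tested, and the added gene was Runx2 through its noncoding probe with the 2 marked spots. The lists had 8 called genes without a filter, 21 with all 10 scans as samples, 8 in the series matrix, and 8 to 20 when 1 array was left out, with 8 without each mimic array and 20 without scramble array 1. The replicate numbers were not taken as pairs: the 4 pairs of the same number correlated at −0.27 to 0.19 in their deviations, 0 of 4 correlated best with their own number and 4 of 4 with a scan of the same day. The median difference of all genes was 0.09 as reported and −0.04 when the percentile came from probes detected on all 10 scans, where Phex differed by 1.73. Background limits what can be said of Runx2, Sp7, Alpl, Ibsp, Dlx5 and Pth1r, where a change below the detection range could not be seen.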
